A study of Drosophila melanogaster with 8 samples.

Results

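The delta class of glutathione S-transferases of Drosophila melanogaster is represented here by the genes GstD1 to GstD10, which were chosen by name and lie side by side on chromosome arm 3R. Of these 10 genes, 9 had a row among the 12082 gene rows of the count table, and GstD6 (CG4423) had none. A filter on low counts left 8 of the 9 among the 10525 genes tested, without GstD4. PolyA RNA was sequenced from whole females in 4 mutant and 4 control libraries. The mutants were of the genotype btl>DHR78; DHR78[1]/[3], with the alleles 1 and 3 of the nuclear receptor gene Hr78 (DHR78) over each other and a transgene that supplies DHR78 through the driver of breathless (btl). The controls carried btl>DHR78 alone, so both genotypes had the transgene. The breathless driver is known for its activity in the tracheal system, so a mutant fly here is one in which the receptor was supplied through that driver. Females of both genotypes were 1 week old and had been fed 8% yeast and 9% sugar, and each library pooled RNA of 2 collections of 12 females.

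Glutathione S-transferases join the tripeptide glutathione to reactive or foreign compounds, which makes these more soluble and easier to export. The delta class belongs to insects and other arthropods, and in flies and mosquitoes its members are known for their part in the metabolism of insecticides and of products of lipid oxidation. GstD1, the best studied of them, can remove chlorine from DDT, and its promoter is widely used in reporters of the transcription factor CncC, the fly counterpart of Nrf2, whose inhibitor is Keap1. The genes are close copies of one another, and how reads that match several of them were counted is not given in the sources used here. The split of reads among members is therefore uncertain, and more so for the weakly expressed ones.

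Total counts were 22608378 to 33054191 in mutant libraries and 19544675 to 28106635 in control libraries, so that 3 counts corresponded to 0.0916 to 0.155 CPM (counts relative to library size, after TMM scaling). Hr78 transcripts, which include those of the transgene, were at 69.3 to 73.4 CPM in mutants and 118 to 127 CPM in controls. Across the table, 2063 of the 10525 genes tested (19.6%) differed between the genotypes at an adjusted p under 0.05 (edgeR quasi-likelihood test, Benjamini-Hochberg), with 1173 lower and 890 higher in the mutant. With upper quartile scaling, the split was 872 lower and 1499 higher. Of 8 listed markers of the male reproductive tract and testis, none of which passed the filter, the summed level was 130 CPM in mutant replicate 2, 0.0790 to 0.216 CPM in the other mutants and 0.149 to 0.636 CPM in controls. Mutant replicate 2 had none of these markers at 0, against 5 to 7 at 0 in each other mutant and 3 to 5 in each control. The fold changes of GstD1, GstD2, GstD3, GstD8 and GstD9 are therefore also given without that library. The yolk protein genes Yp1, Yp2 and Yp3, made in the female fat body and ovarian follicle cells, summed to 22743 to 28374 CPM in mutants and 22063 to 34564 CPM in controls.

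Among the delta genes, GstD1, GstD2 and GstD3 fell in the mutant and none rose. These 3 of 8 tested members passed the threshold. Of all tested genes, 19.6% did so in either direction, 11.1% as lower and 8.46% as higher. The members were chosen with earlier results of these data known, so these shares stand side by side as description only. GstD1 was by far the most abundant member in both genotypes and stood at 58.9% of its control level in mutants, GstD2 at 59.9% and GstD3 at 44.9%. Whole flies were sequenced, so fewer cells of a type and less RNA per cell cannot be told apart. The other 5 tested members did not pass, and their point estimates lay on both sides of 0. In the Release 6 gene order, GstD1, GstD2 and GstD3 are consecutive genes in the middle of the cluster. The median log2 fold change over the 8 tested members was -0.45, against 0.01 over all genes tested. That median falls in a gap between GstD2 (-0.74) and GstD10 (-0.17), with no member between them.

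GstD1 (CG10045), the DDT-metabolizing enzyme, had 395, 369.6, 338 and 332 CPM in mutant replicates 1 to 4, against 593, 638, 568 and 636 CPM in control replicates 1 to 4. Every mutant library lay below every control library, with a gap between the groups wider than the spread within either. These levels rested on 7669 to 12954 counts in mutants and 11614 to 15899 counts in controls, so counting error was small. The mean was 359 ± 29.6 CPM in mutants and 609 ± 34.2 CPM in controls (SD, n = 4 each). The log2 fold change, mutant over control, was -0.76 (SE 0.06, 95% interval -0.91 to -0.62, adjusted p 4.74e-05, edgeR quasi-likelihood). Exact permutation of the genotype among the 8 levels gave a two-sided p of 0.0286, below which no split of 4 libraries against 4 can go. By mean CPM, with no correction for gene length, GstD1 ranked 403rd of 12082 rows in mutants and 229th in controls.

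GstD3 (CG4381) had the second highest level of the class. Its predicted protein is known to lack the start of the N-terminal domain that other members share. GstD3 was at 19.1, 17.8, 17.2 and 18.0 CPM in mutant replicates 1 to 4, against 37.7, 43.7, 34.5 and 44.6 CPM in control replicates 1 to 4. The mutant libraries lay close together, and even the lowest control was well above the highest mutant. The mean was 18.0 ± 0.792 CPM in mutants and 40.1 ± 4.85 CPM in controls (SD, n = 4 each), with 417 to 625 and 706 to 1011 counts per library in mutants and controls. The log2 fold change was -1.15 (SE 0.08, 95% interval -1.34 to -0.97, adjusted p 1.68e-05, edgeR).

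GstD2 (CG4181), an enzyme of the same class, had 2.81, 2.24, 3.04 and 1.99 CPM in mutant replicates 1 to 4, against 5.08, 3.93, 3.32 and 4.49 CPM in control replicates 1 to 4. The groups did not overlap, but mutant replicate 3 came close to control replicate 3. GstD2 rested on 46 to 92 counts in mutant libraries and 68 to 136 counts in control libraries. Its log2 fold change was -0.74 (SE 0.18, 95% interval -1.14 to -0.34, adjusted p 0.0173, edgeR). Over the alternatives its adjusted p ranged from 0.0101 to 0.0490, the highest value without control replicate 1. Without mutant replicate 2 the log2 fold changes were -0.78 for GstD1, -0.68 for GstD2 and -1.15 for GstD3, with an adjusted p of 0.000121, 0.0341 and 5.77e-05 (edgeR).

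**Figure D1:**
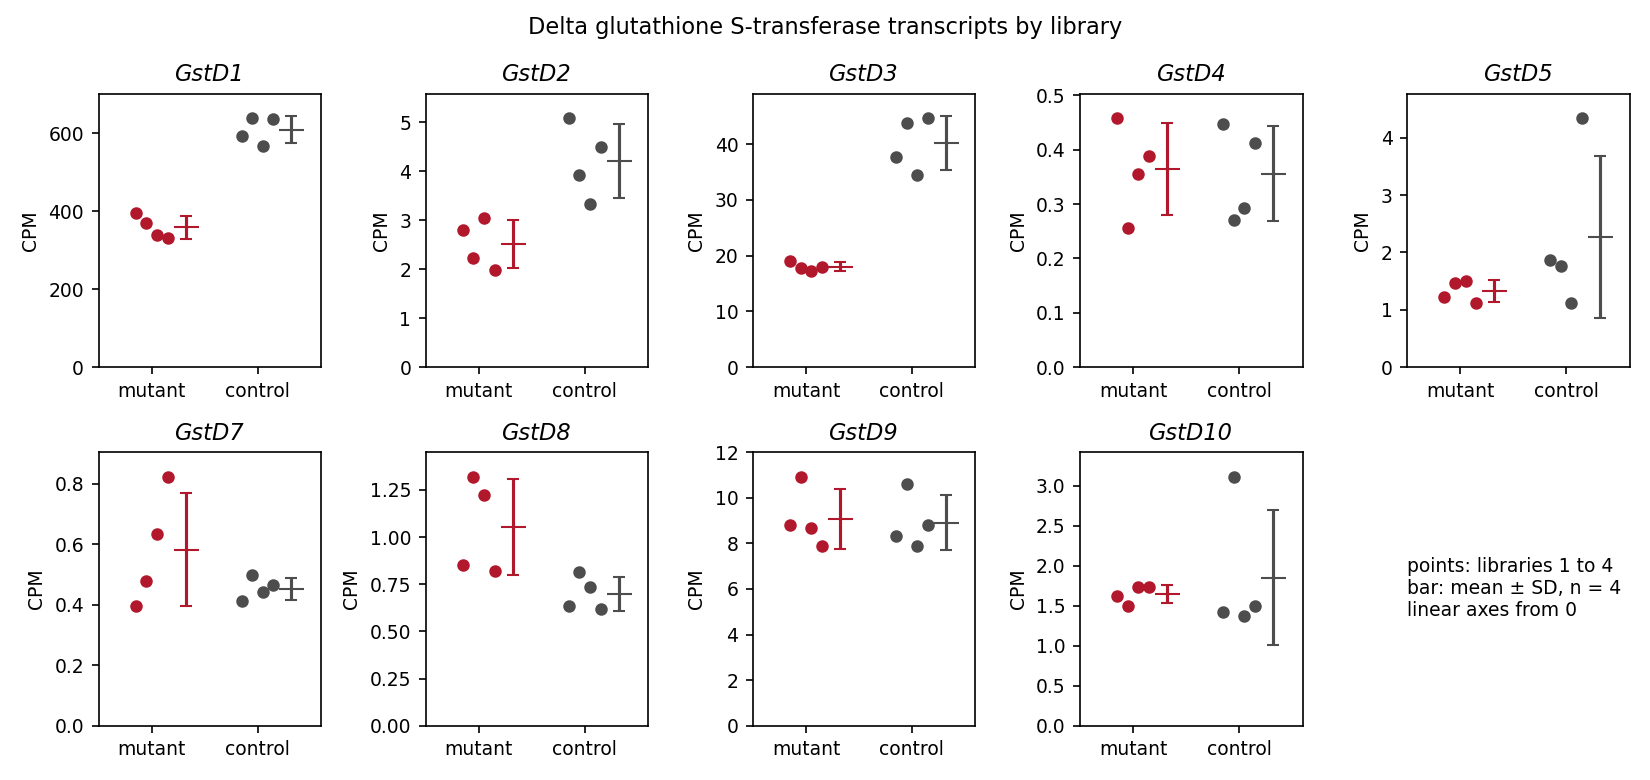
Level of each of the 9 delta genes with a row, in CPM on linear axes that start at 0, with mutant libraries (red) left of control libraries (grey); points are libraries and bars the mean ± SD (n = 4). GstD1, GstD2, GstD3 and GstD8 show no overlap between the genotypes, and single control libraries stand high in GstD5 (4.34 CPM) and GstD10 (3.11 CPM).

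GstD5 (CG12242), a neighbour of GstD4 in the cluster, had 1.22, 1.47, 1.50 and 1.12 CPM in mutant replicates 1 to 4, against 1.87, 1.76, 1.12 and 4.34 CPM in control replicates 1 to 4. The genotypes overlapped, and control replicate 4 stood above every other library. Its log2 fold change of -0.76 was as large as that of GstD1, but less certain (SE 0.37, 95% interval -1.58 to 0.05, adjusted p 0.174, edgeR). Without control replicate 4 it was -0.26 (adjusted p 0.495, edgeR).

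GstD8 (CG4421), the last member at one end of the cluster, was at 0.855, 1.32, 1.22 and 0.822 CPM in mutant replicates 1 to 4, against 0.634, 0.812, 0.733 and 0.620 CPM in control replicates 1 to 4. All mutant libraries lay above all control libraries, though by a narrow margin, and on 19 to 36 counts in mutants and 12 to 18 counts in controls. Its log2 fold change was 0.59 (SE 0.24, 95% interval 0.06 to 1.11), and it did not pass (adjusted p 0.108, edgeR). Without mutant replicate 2, its highest library, the log2 fold change was 0.46 (adjusted p 0.228, edgeR). With GstD8, 4 of the 8 tested members had genotypes that did not overlap in CPM, which was the case for 25.0% of all tested genes.

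GstD9 (CG10091), the third most abundant member, differed little. It was at 8.82, 10.9, 8.69 and 7.87 CPM in mutant replicates 1 to 4, against 8.32, 10.6, 7.87 and 8.83 CPM in control replicates 1 to 4. The ranges of the genotypes covered each other almost fully. Its log2 fold change was 0.03 (SE 0.13, adjusted p 0.898, edgeR), and its 95% interval of -0.25 to 0.30 lay above the whole interval of GstD1. Without mutant replicate 2 the log2 fold change of GstD9 was -0.07 (adjusted p 0.725, edgeR).

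GstD10 (CG18548), which lies at the other end of the cluster, had 1.62, 1.50, 1.74 and 1.73 CPM in mutant replicates 1 to 4, against 1.42, 3.11, 1.37 and 1.50 CPM in control replicates 1 to 4. Only control replicate 2 stood apart. The log2 fold change of GstD10 was -0.17 (95% interval -0.76 to 0.42, adjusted p 0.697, edgeR), and it was 0.21 without control replicate 2. GstD7 (CG4371) was at 0.397 to 0.822 CPM in mutants and 0.411 to 0.496 CPM in controls, and its log2 fold change was 0.34 (95% interval -0.30 to 0.98, adjusted p 0.451, edgeR). GstD4 (CG11512), with 7 to 15 counts per mutant library and 6 to 12 per control library, was at 0.257 to 0.458 CPM in mutants and 0.271 to 0.448 CPM in controls. When no filter was applied it entered the test, where its log2 fold change was 0.03 (adjusted p 0.970, edgeR).

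Members can be compared with each other only per length, and per kilobase of exon the class spanned a wide range of levels. In mutants GstD1 was at 425 ± 35.1, GstD3 at 24.2 ± 1.06, GstD9 at 11.5 ± 1.65 and GstD2 at 3.43 ± 0.665 CPM per kilobase (SD, n = 4). In controls GstD1 was at 722 ± 40.6, GstD3 at 53.8 ± 6.50, GstD9 at 11.3 ± 1.52 and GstD2 at 5.73 ± 1.02 CPM per kilobase (SD, n = 4). These 4 members kept the same order in both genotypes, with no overlap between GstD1, GstD3, GstD9 and GstD2 within a genotype. Below them, GstD10, GstD5, GstD8, GstD7 and GstD4 had mutant means of 0.503 to 1.88, and GstD5, GstD10, GstD8, GstD7 and GstD4 control means of 0.491 to 2.70 CPM per kilobase. In that lower range the neighbours GstD10 and GstD5, GstD5 and GstD8, GstD8 and GstD7, and GstD7 and GstD4 overlapped in mutants. In controls, GstD2 and GstD5, GstD5 and GstD10, and GstD7 and GstD4 overlapped.

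Summed over the 9 members, delta transcripts amounted to 431, 406, 372 and 365 CPM in mutant replicates 1 to 4, against 649, 702, 617 and 701 CPM in control replicates 1 to 4. This sum does not depend on how the reads counted for the class were split among its members, and no mutant library reached the lowest control. GstD1 made up 91.2% ± 0.447 of the sum in mutants and 91.2% ± 0.587 in controls (SD, n = 4 each). Without GstD1, the other 8 members summed to 32.8 to 36.0 CPM in mutants and 49.7 to 65.3 CPM in controls. Most of that difference was in GstD3, with means of 18.0 CPM in mutants and 40.1 CPM in controls. Among the 35 rows of glutathione transferases of all classes, the delta members took 29.8% to 31.9% of the summed CPM per kilobase in mutants and 44.9% to 49.3% in controls. These sums and shares are descriptions and carry no test.

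Ratios within a library do not depend on scaling and show how members moved relative to GstD1. GstD3 counts were 4.82%, 4.82%, 5.08% and 5.44% of GstD1 counts in mutant replicates 1 to 4, against 6.36%, 6.86%, 6.08% and 7.01% in control replicates 1 to 4. GstD3 was thus lower relative to GstD1 in every mutant library than in any control library. GstD9 counts were 2.23% to 2.95% of GstD1 counts in mutants and 1.39% to 1.66% in controls. GstD8 and GstD7 were likewise higher relative to GstD1 in all mutants. GstD1 itself fell, so a member that kept its level comes out higher relative to it. In CPM, GstD9 had a log2 fold change of 0.03 and GstD7 overlapped between the genotypes. The share of all genes whose ratio to GstD1 does not overlap was not computed. Over the 8 ratios to GstD1, those of GstD3, GstD7, GstD8 and GstD9 each had an exact two-sided permutation p of 0.0286, the smallest the design allows, and an adjusted p of 0.0571 (Benjamini-Hochberg over 8), which did not pass. No single ratio could have passed alone at that smallest p, and all 8 share the GstD1 counts as denominator. The ratio of GstD2 to GstD1 was 0.704% ± 0.140 in mutants and 0.691% ± 0.121 in controls (SD, n = 4 each; exact permutation p = 0.800).

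**Figure D2:**
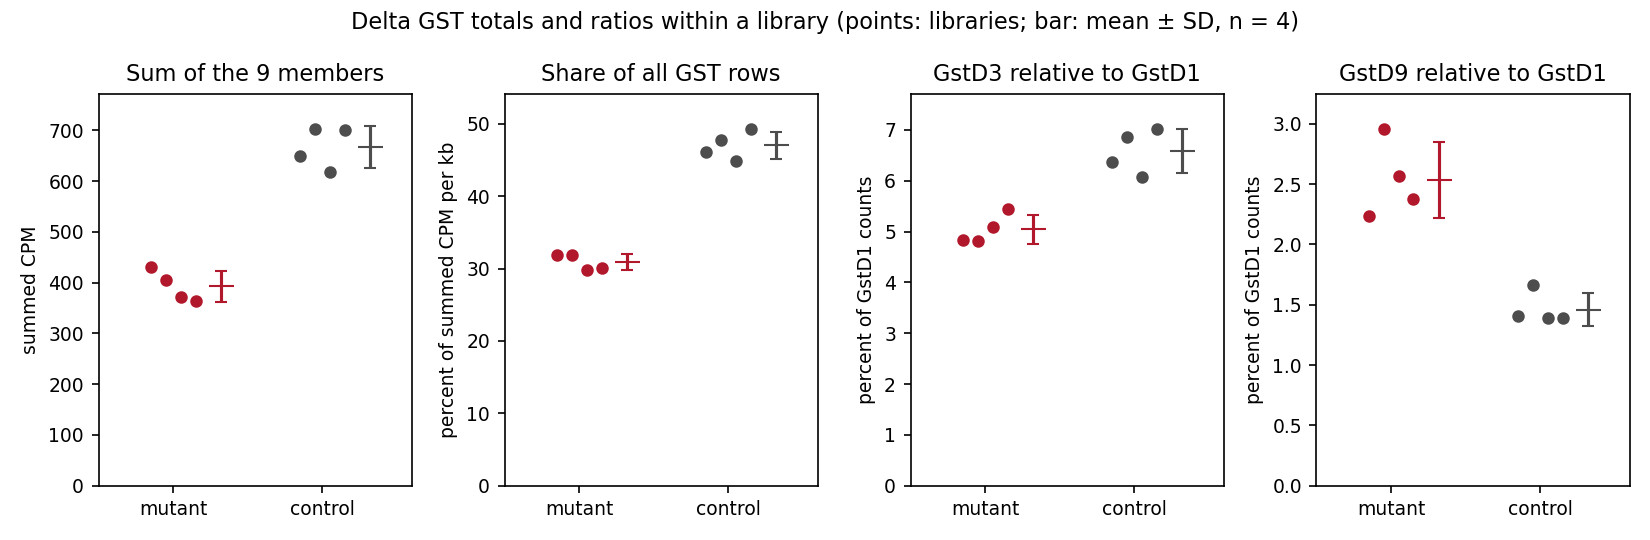
From left to right, the summed CPM of the 9 delta genes, their share in percent of the summed CPM per kilobase of all 35 glutathione transferase rows, and GstD3 and GstD9 counts in percent of GstD1 counts, with mutant libraries left of control libraries. Points are libraries and bars the mean ± SD (n = 4). The mutants are lower in the first 3 panels and higher in the last, without overlap. The last panel divides by GstD1, which itself fell.

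The place of the members in the cluster was set beside their fold changes. In the Release 6 order along 3R the genes run GstD10, GstD9, GstD1, GstD2, GstD3, GstD4, GstD5, GstD6, GstD7 and GstD8. GstD10, GstD9 and GstD1 are transcribed from the minus strand and have 2 exon blocks each, and the other 7 are on the plus strand with 1 exon block. GstD1 and GstD2, which both fell, thus lie on opposite strands and point away from each other, while GstD9, next to GstD1 on the same strand, was not called. No member overlaps another gene in that annotation. The 10 genes have exons of 725 to 876 bases in total, and the 437 tested genes in that range had a median log2 fold change of 0.09, with 21.1% past the threshold and 6.18% lower.

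Of the 10 nearest measured genes, 5 on each side, 8 were tested and 1 passed the threshold. CG10096, annotated among the fatty acyl-CoA reductases and the fifth beyond GstD8, rose to 161 ± 10.3 CPM in mutants, against 86.7 ± 8.41 CPM in controls (SD, n = 4 each) (log2 fold change 0.89, adjusted p 3.53e-05, edgeR). Its counts equal those of CG10097 in 6 of the 8 libraries, so the 2 rows are not separate measurements. CG10035 and GstD11, the first neighbours beyond GstD8, had log2 fold changes of -0.69 (95% interval -1.92 to 0.53) and 0.16 (-0.34 to 0.67). CG4115 and MBD-R2, on the side of GstD10, had 0.51 (0.12 to 0.90, adjusted p 0.0702, edgeR) and -0.03 (-0.23 to 0.16). Sol1, CG33098 and CG10038 lay between -0.09 and 0.15 on the log2 scale, and Tim17a1 and CG10041 were too low to test. On arm 3R as a whole, 18.1% of 2578 tested genes passed. Hr78 lies on the same chromosome (arm 3L), and a difference in the third chromosome that came with the mutant alleles cannot be told apart from the effect of Hr78 in this design.

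**Figure D3:**
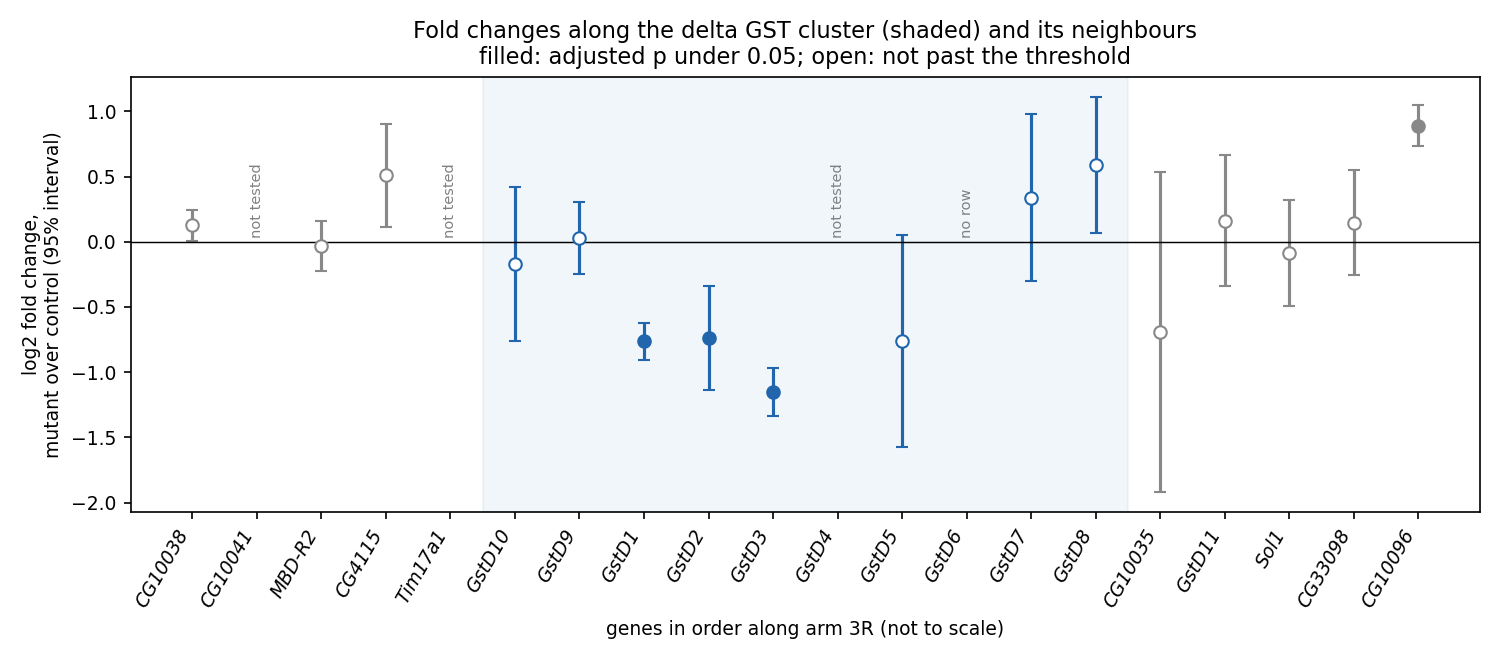
Log2 fold change, mutant over control, with 95% intervals from the edgeR fit, for the delta genes (blue, shaded) and 5 measured neighbours on each side (grey), in gene order along 3R and not to scale. Filled points passed an adjusted p of 0.05; GstD1, GstD2 and GstD3 stand together at -0.76, -0.74 and -1.15, and GstD4, GstD6 and 2 neighbours have no estimate.

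Delta transferases are known from midgut, Malpighian tubule and fat body. Of the listed fat body markers 1 of 4 tested was lower in mutants, apolpp (log2 fold change -0.32), and none higher. The other tested ones were FASN1 (-0.39, adjusted p 0.0679, edgeR), AkhR (0.06) and the gene to (0.03). Lsp2, which was not tested, was at 0.0395 to 1.14 CPM in mutants and 0.147 to 0.299 CPM in controls. The list of 5 summed to 2523 to 2805 CPM in mutants and 3144 to 3703 CPM in controls, mostly from apolpp and FASN1. Of 5 Malpighian tubule markers 2 were lower, Irk3 (log2 fold change -0.68) and NaPi-T (-0.32), and the list summed to 82.8 to 100.04 CPM in mutants and 102 to 137 CPM in controls. Of 6 midgut markers 1 was lower, Vha100-4, a proton pump subunit gene (log2 fold change -1.19, adjusted p 0.0147, edgeR). The others, not called, were Myo61F (-0.53), lab (-0.38), esg (-0.24), nub (-0.19) and Myo31DF (-0.01). The midgut sums were 287 to 368 CPM in mutants and 348 to 496 CPM in controls. No listed marker of these 3 tissues was at 0 in any library. Over all tested genes, 11.1% were called lower and 25.0% did not overlap between the genotypes. The fat body and tubule sums did not overlap, and each is weighted towards its most abundant markers. The part of these tissues in the result was not tested.

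Among the other glutathione transferases more genes rose than fell. Of 26 tested genes of the epsilon, omega, sigma, theta, zeta and microsomal classes, with GstD11, 10 rose and 1 fell, and their median log2 fold change was 0.16. Over all tested genes, 8.46% rose and 11.1% fell. Mgstl, the microsomal transferase, was at 125 ± 12.2 CPM in mutants and 54.8 ± 3.75 CPM in controls (SD, n = 4 each; adjusted p 8.49e-06, edgeR). GstE9, GstE10 and GstE3 of the epsilon class had log2 fold changes of 0.82, 0.62 and 0.44. The gene that fell was GstZ1 of the zeta class, named after its value was seen. The difference between classes was not itself tested.

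Among genes of glutathione synthesis and turnover, 1 of 7 tested rose and 1 fell, where 19.6% of all tested genes passed in either direction. Gclc, the catalytic subunit of the enzyme that limits glutathione synthesis, was at 125 ± 2.99 CPM in mutants and 142 ± 4.13 CPM in controls (SD, n = 4 each); its log2 fold change was -0.19 (adjusted p 0.00792, edgeR). Gtpx, a peroxidase gene of the glutathione peroxidase family, rose by 0.19 on the log2 scale (adjusted p 0.0124, edgeR).

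Among the listed genes of the CncC and Keap1 pathway, in 11 tested rows, 1 fell and none rose. Over all tested genes, 11.1% fell and 8.46% rose. The one that fell was Cyp12d1-p, a cytochrome P450 gene, at 1.33 ± 0.260 CPM in mutants and 2.93 ± 0.520 CPM in controls (SD, n = 4 each; adjusted p 0.00316, edgeR). The median log2 fold change over the 11 rows was -0.03, against 0.01 over all genes tested. Rows not called went both ways, such as Cyp6a8 at 0.57 and Cyp6a2 at -0.36, named after their values were seen. The main row of cnc, the gene of CncC, had a log2 fold change of -0.14 (95% interval -0.24 to -0.04, adjusted p 0.0559, edgeR). Keap1 had one of 0.13 (95% interval 0.0041 to 0.26, adjusted p 0.136, edgeR). cnc and Keap1 were also chosen for naming after their values were seen, because they are known to regulate GstD1.

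Of 6 genes of xenobiotic and related receptors, 2 fell, where 11.1% of all tested genes fell. These were Hr78, with a log2 fold change of -0.79, and usp, the partner of the ecdysone receptor, with -0.22 (adjusted p 0.00383, edgeR). Hr78 is the mutated gene, so its fall is no separate result of the list. Hr96, a nuclear receptor known for its part in the response to xenobiotics, had a log2 fold change of -0.06 (95% interval -0.16 to 0.034, adjusted p 0.343, edgeR), and it too was named after its value was seen.

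Over the 8 libraries, with the delta members left out, the 5 genes whose log2 CPM (prior count 2) followed GstD1 most closely among 9436 genes of at least 2 CPM were pyd (in the row of CG31349), kis, htt, Naa15-16 and plh, with Pearson r of 0.987 to 0.992. GstD3 had an r of 0.988 with GstD1 and GstD2 one of 0.860, while GstD9 had 0.062 and GstD8 -0.745. The difference between the genotypes enters each of these values, which share libraries and scaling and are descriptions only. All 5 genes were lower in mutants, with log2 fold changes from -1.30 for plh to -0.26 for Naa15-16. They were picked for following GstD1, which fell, so this shared direction came with the choice.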

How the data were processed

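The values are gene-wise read counts in a single table that the authors deposited, whole numbers whose library totals differ, with no normalization in them. The submitters' processing notes name the build dm3 and the tool DESeq, with no role. Alignment, counting, gene models and strand use were not given in the sources used here. Of 12083 rows, 1 names no gene (0.0154% to 0.0176% of a library) and was left out. Rows carry CG numbers, of which 11482 matched a RefSeq Release 6 locus tag and 458 an older name. The build differs, so only names, arms, order, strand and exon lengths (Ensembl BDGP6) were used. Counts were filtered with filterByExpr (minimum count 10), scaled with TMM and tested with edgeR 4.0.16 (R 4.3.3; robust quasi-likelihood, no covariates, two-sided, Benjamini-Hochberg over all genes tested, threshold 0.05). The fit was also tested on simulated data. SE was taken as the size of the log2 fold change over the root of F, and intervals are 95%. Counting floors are 3 counts and cover counting error only. The labels describe separate collections, each library a pool of 2. No library pair within a genotype agreed within sampling noise (chi-square per degree of freedom 10.4 to 36.3). The 15 alternatives were RLE and upper quartile scaling, no filter, DESeq2 1.42.0, limma-voom 3.58.1, non-robust estimation, a replicate block and leaving out each library. Members and lists were chosen with earlier results of these data known. Named are all members, Hr78, 5 neighbours a side, up to 4 called genes of each list with the smallest adjusted p, and the 5 genes most like GstD1. In the lists, GstO4, Gss1 and Gss2 had no row, Trxr2 and Grx1t were not tested, and cnc and Cul3 had 2 rows each.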

Additional observations from a re-analysis of the deposited data

Results flagged for a closer look

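In 3 of the 68 groups of 4 libraries checked, 1 library stood far from the rest, where chance gives about 1 in 20. GstD10 was at 3.11 CPM in control replicate 2 and at 1.37 to 1.50 CPM in the other controls. Tim17a1, a neighbour of the cluster, was at 0.843 CPM in mutant replicate 2, the library with male-type transcripts, and at 0 to 0.0305 CPM in the other mutants. Gtpx was at 166 CPM in control replicate 1 and at 158 to 159 CPM in the other controls.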

How the results depend on the processing

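GstD1, GstD2 and GstD3 were called lower, and no other member was called, under all 15 alternatives. Their log2 fold changes ranged from -0.81 to -0.72, from -0.84 to -0.63 and from -1.22 to -1.10. The count over all genes ranged from 1476 to 2405. Over 30 named genes, 437 of 450 values kept direction and side of the threshold, 3 passed anew and 10 changed sign, none of them of a called gene. With upper quartile scaling CG4115 and CG10038 passed (adjusted p 0.0454 and 0.0462, edgeR), CG4115 also without control replicate 1 (0.0464), and MBD-R2 was at 0.013. Leaving out single libraries gave log2 fold changes of -0.072 to 0.13 for GstD9, -0.29 to 0.21 for GstD10, -0.083 to 0.024 for MBD-R2 and -0.17 to 0.024 for Sol1. The cause was not tested. The numbers of the replicates did not pair the libraries (correlations of deviations 0.21, -0.05, -0.10 and 0.04), and 1 of 4 mutants correlated best with the control of its own number. With the replicate block 2405 genes passed, and GstD1, GstD2 and GstD3 had log2 fold changes of -0.76, -0.74 and -1.15. Depth limits GstD4, GstD7 and GstD8, with under 40 counts in each library.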
